A study of Mus musculus with 8 samples.

Results

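The cadherin superfamily was followed in mouse embryonic fibroblasts (MEFs) that were being reprogrammed. Members were all genes of the expression table whose symbol is Cdh with a number, starts with Pcdh, or is *Fat1* to *Fat4*, *Dchs1* or *Dchs2*. *Cdh1* was left out by this rule and is given only for comparison. The rule used names alone and found 71 of the 18990 genes in the table. Of these, 51 reached a mean of at least 1 CPM (reads scaled by library size) over the 8 libraries and were tested, among 13866 tested genes in all. The 71 members comprised 4 type I classical cadherins, 8 type II cadherins, 4 other genes with a Cdh symbol, 6 Fat and Dachsous cadherins, 10 nonclustered protocadherins and 39 clustered protocadherins. The number tested was 2, 4, 4, 5, 8 and 28, in that order.

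Cadherins are membrane proteins whose extracellular repeats bind calcium and join neighbouring cells. Classical type I and type II cadherins hold adherens junctions together and are tied to actin through β-catenin and α-catenin, and the replacement of one type by another accompanies changes between mesenchymal and epithelial states. Fat and Dachsous cadherins are giant proteins that bind each other across cell borders and act in planar cell polarity and tissue growth. Clustered protocadherins are encoded in tandem arrays of variable exons, each with its own promoter, and are best known for giving single neurons a surface identity, whereas the nonclustered protocadherins are dispersed genes, many of them studied in the brain.

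The cells of all 4 groups were primary wild-type MEFs of strain BL6, which the labels give as passage 1 at plating and passage 2 when reprogrammed, and carried an inducible lentiviral cassette of Oct4, Sox2, Klf4 and c-Myc (OSKM, tet-STEMCCA) together with rtTA. Each culture received 40 nM of a pool of siRNAs against *Ncor1*, which encodes a nuclear receptor corepressor, or against *Oct4* (gene symbol *Pou5f1*), a factor of the cassette itself. Doxycycline then induced the cassette in a medium with chiron, an Alk5 inhibitor, ascorbic acid and LIF, and total RNA was sequenced after ribosomal RNA depletion at day 3 or day 6. The groups were thus *siNcor1* day 3, *siNcor1* day 6, *siOct4* day 3 and *siOct4* day 6, with 2 libraries each, and libraries of the non-targeting (nt) control were not analysed here. The lentiviruses were added at a multiplicity of infection of 1, so cells of a culture can differ in the copies they carry. In such bulk RNA, fewer cells that express a gene and less RNA of that gene per cell cannot be told apart.

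Libraries held between 7735742 and 16445192 reads on genes. The unit throughout is the deposited log2-cpm, and differences are log2 fold changes on that scale, which understates the change of genes with few reads. The targeted genes were read first. At day 3, *Ncor1* averaged 7.14 ± 0.085 (SD, n = 2) in *siNcor1* and 7.88 ± 0.081 in *siOct4* (limma adjusted p = 0.0139), but at day 6 it averaged 7.27 ± 0.017 and 7.23 ± 0.14 (limma adjusted p = 0.815). *Pou5f1* was not lower in the libraries of the *Oct4* knockdown, with log2 differences to *siNcor1* of −0.08 at day 3 and 1.78 at day 6 (limma adjusted p = 0.941 and 0.000109), so these are called the *siOct4*-labelled libraries. These values do not separate *Pou5f1* transcripts of the cassette from endogenous ones. The noncoding RNA *Gm26917* took 15.5 to 16.6% of reads at day 3 and 20.3 to 29.1% at day 6. The label MEF was checked against 10 fibroblast markers, all of which were tested and expressed. Of the other lists, 1 of 8 endothelial markers (*Tek*, 151 to 745 reads per library) and 3 of 5 blood markers (*Laptm5*, 29 to 161 reads, *Cd68*, 31 to 103, and *Lyz2*, 19 to 52) reached the filter, while *Emcn* had at most 2 reads. Of 8 pluripotency markers 7 reached it, *Nanog* with 0 to 390 reads, and *Zfp42* had at most 3.

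Per kilobase of exon that no other gene shares on the same strand, the family was led by *Fat1*, a giant cadherin that regulates actin at cell borders. Its level was 86.6 ± 0.95 CPM per kb (SD, n = 2) in *siNcor1* at day 3, 59.4 ± 4.88 at day 6, 108 ± 17.5 in the *siOct4*-labelled libraries at day 3 and 32.7 ± 1.98 at day 6. *Fat1* alone made up 47.9 to 62.6% of the CPM of all 71 members. The second mean level in each group was that of *Cdh11*, the mesenchymal type II cadherin also called OB-cadherin, with 25.3 ± 0.80, 22.9 ± 2.50, 31.8 ± 1.73 and 10.2 ± 1.83 CPM per kb in the same order of groups. At day 6 of the *siOct4*-labelled libraries, *Cdh11* and the protocadherin *Pcdhgc3*, at 9.90 ± 0.86, could not be ordered. Below it the order changed with the day. *Cdh2*, N-cadherin, held place 4 in *siNcor1* and place 3 in the *siOct4*-labelled libraries at day 3, and places 8 and 7 at day 6. *Cdh13*, the GPI-anchored T-cadherin, went from places 7 and 8 to place 4. *Dchs1*, a ligand of *Fat4*, went from places 10 and 12 to place 6 in both knockdowns. Neighbours often did not differ beyond their spread: at day 3 of the *siOct4*-labelled libraries, *Cdh2* at 15.3 ± 0.15 and the protocadherin *Pcdhgc3* at 15.3 ± 2.07 CPM per kb could not be ordered. *Pcdhgc3* and related Pcdhg genes share exons with each other. Their levels per kb hold only if reads on shared exons were not counted, which is not known, and are overstated otherwise.

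**Figure D1:**
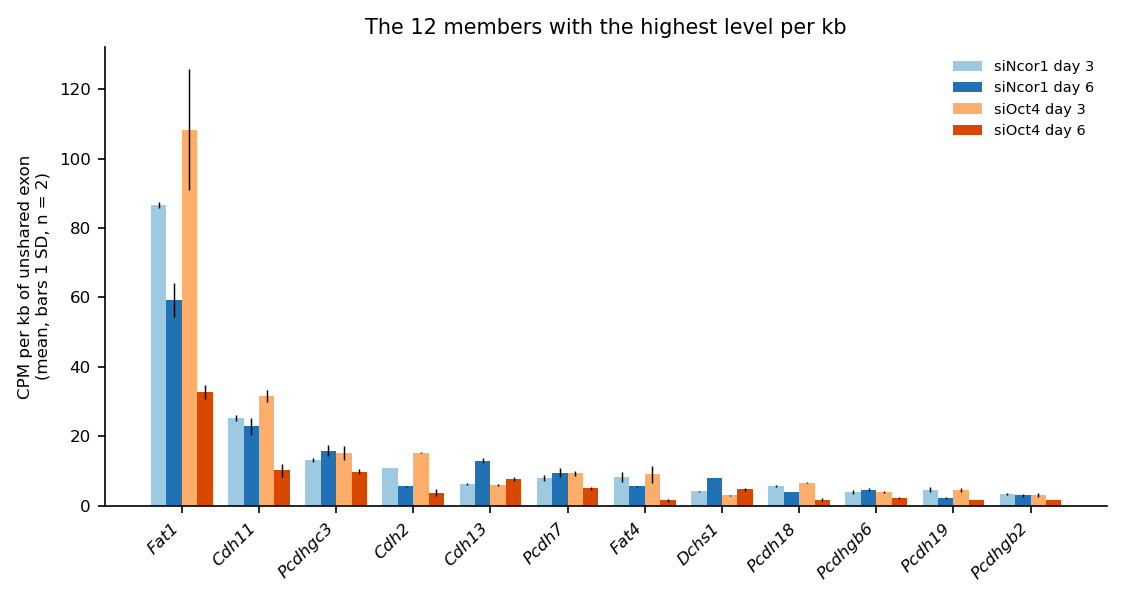
Mean level of the 12 members with the highest level per length, in CPM per kb of exon shared with no other gene (y axis, linear), for each of the 4 groups (bars from 0, with 1 SD over 2 libraries). *Fat1* stood above the other members in all 4 groups and ranged from 32.7 to 108 CPM per kb. *Cdh11* had the second mean, but in *siOct4* day 6 it could not be ordered against *Pcdhgc3* (10.2 ± 1.83 and 9.90 ± 0.86 CPM per kb). Levels of Pcdhg genes are overstated if reads on the exons they share were counted, which is not known.

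At the other end, *Cdh5*, the VE-cadherin of endothelium, had 0 to 5 reads per library, and *Cdh15*, the M-cadherin of muscle, 0 to 10. Neither was tested. The other untested members outside the clusters were *Cdh4*, *Cdh10*, *Cdh18*, *Cdh19*, *Fat2*, *Pcdh11x* and *Pcdh20*, of which *Cdh4* had the most reads, 4 to 24 per library, and 11 genes of the Pcdhb cluster were untested as well. Between 56 and 70 members had more than 3 reads in a given library. A count of 3 reads corresponds to 0.174 to 0.380 CPM in these libraries, so absence below that level was not detectable at this depth.

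Promoter sequence was available for 21 of the 71 members, with 22 start sites, from RefSeq on GRCm38.p6. The 250 bases before the start are given for *Fat4*, *Pcdh18* and *Pcdh9*, 3 members that were lower together in the day 6 comparison, and for *Pcdh15*, the member that rose most with time. Capitals mark CpG dinucleotides, and each sequence runs 5′ to 3′ on the strand of its gene. The windows are chr3:38886690-38886939 on the plus strand (*Fat4*), chr3:49757317-49757566 on the minus strand (*Pcdh18*), chr14:93890680-93890929 on the minus strand (*Pcdh9*) and chr10:73821617-73821866 on the plus strand (*Pcdh15*). The *Pcdh15* start lies inside the longer gene model of GENCODE M21, which begins at base 73099342, so other starts exist.
Fat4: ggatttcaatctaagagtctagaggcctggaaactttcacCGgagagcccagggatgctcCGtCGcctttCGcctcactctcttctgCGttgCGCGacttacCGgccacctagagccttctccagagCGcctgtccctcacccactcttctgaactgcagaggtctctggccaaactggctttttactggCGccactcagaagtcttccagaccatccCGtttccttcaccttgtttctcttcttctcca
Pcdh18: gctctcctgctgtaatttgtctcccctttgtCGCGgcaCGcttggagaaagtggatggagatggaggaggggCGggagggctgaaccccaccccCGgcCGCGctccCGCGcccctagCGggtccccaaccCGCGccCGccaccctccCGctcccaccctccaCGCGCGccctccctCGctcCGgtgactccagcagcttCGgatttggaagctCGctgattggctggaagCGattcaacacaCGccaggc
Pcdh9: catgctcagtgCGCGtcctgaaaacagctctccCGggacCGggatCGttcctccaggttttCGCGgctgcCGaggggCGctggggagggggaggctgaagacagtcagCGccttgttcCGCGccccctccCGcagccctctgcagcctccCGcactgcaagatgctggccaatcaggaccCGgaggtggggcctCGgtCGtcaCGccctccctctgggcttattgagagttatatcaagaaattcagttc
Pcdh15: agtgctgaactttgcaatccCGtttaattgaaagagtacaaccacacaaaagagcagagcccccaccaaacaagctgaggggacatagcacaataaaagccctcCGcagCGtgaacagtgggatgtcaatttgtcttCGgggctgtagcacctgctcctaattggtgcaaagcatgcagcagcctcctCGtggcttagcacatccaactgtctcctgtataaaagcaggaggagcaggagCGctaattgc

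The *Pcdh18* window held 23 CpG dinucleotides, the *Pcdh9* window 18 and the *Fat4* window 11, at 68.0%, 63.6% and 54.8% G plus C, and the *Pcdh15* window held 6 at 50.4%. The median over all 32851 start sites of the table was 6 CpG dinucleotides and 52.4% G plus C, against 9.5 and 60.2% over the 22 start sites of members. Motifs were searched on both strands: CACCTG, an E-box that Snail and Zeb repressors can bind, TGANTCA for AP-1, GGAATG for TEAD factors and ATGCAAAT, the octamer. CACCTG was found at 17.2% of all starts and at 2 of 22 member starts, those of *Fat1* and *Pcdh15*, where it began 102 bases before the *Pcdh15* start. GGAATG was found at 12.6% of all starts and at 3 of 22, in *Fat1*, *Fat2* and *Cdh10*. TGANTCA (6.75% of all starts) and ATGCAAAT (1.60%) were found at none of the 22, which says only that these letters are not in the windows. The 4 sequences shown held none of the 4 motifs except the E-box of *Pcdh15*, and no motif overlapped another.

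The knockdowns were first compared at day 3. No member passed the test: 0 of 51 had a limma adjusted p under 0.05, where 1.07% of all tested genes did, and 7 of 51 members and 1460 of 13866 genes had an unadjusted p under 0.05. Differences lay below 0 for 24 members and above 0 for 27, with a median of 0.04 against −0.02 over all tested genes. The calls were close to the threshold for a few members. Voom on the recovered reads called only *Cdh6* (log2 difference 0.90, limma adjusted p = 0.0480), a type II cadherin of kidney and neural crest, and a fit of the day 3 libraries alone called only *Cdh2* (0.48, limma adjusted p = 0.0468). Without replicate 1 of *siOct4* day 6 the count was 2, *Cdh2* (limma adjusted p = 0.0215) and *Dchs1* (log2 difference −0.47, limma adjusted p = 0.0300), and without its replicate 2 it was also 2, with adjusted p values of 0.0221 and 0.0295 for the same genes.

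*Cdh2* was at 6.48 and 6.46 log2-cpm in *siNcor1* at day 3 and at 6.96 and 6.94 in the *siOct4*-labelled libraries, a log2 difference of 0.48 (SE 0.15, limma adjusted p = 0.207). *Cdh6* was at 2.35 and 2.42 against 3.37 and 3.11, a difference of 0.86 (SE 0.23, limma adjusted p = 0.115). *Dchs1* was at 5.55 and 5.51 against 5.02 and 5.10 (−0.47, SE 0.12, limma adjusted p = 0.0986). For these 3 genes the libraries of the groups did not overlap, although no call was made. Such separation was common at this day. It held for 15 members above and 6 below *siNcor1*, and for 2872 and 3152 of all 13866 tested genes. The widest differences were those of *Cdh8* (−1.39, 95% interval −2.29 to −0.50), a type II cadherin of neurons with 6 to 63 reads per library at that day, and *Pcdh10* (0.98, interval 0.04 to 1.91), with limma adjusted p of 0.172 and 0.444. The *Cdh8* value is a description, because this gene passed the filter only through *siNcor1* day 3. *Cdh1*, E-cadherin, which is outside the family as defined here, was lower by 2.02 at the same day (limma adjusted p = 6.11e-05), so that its log2 level minus that of *Cdh2* was −1.43 and −1.31 in *siNcor1* and −4.02 and −3.71 in the *siOct4*-labelled libraries. For *Cdh3*, P-cadherin, which neighbours *Cdh1* on chromosome 8, the day 3 difference was 0.37 (interval −0.02 to 0.75).

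At day 6 the family stood lower in the *siOct4*-labelled libraries than in *siNcor1*. By limma, 28 of 51 members were lower and 0 were higher, where 18.6% of all tested genes were lower and 30.7% were called in either direction. Outside the clusters 10 of 23 were lower, and in them 18 of 28, with medians of −0.74 and −0.80. Genes of the Pcdhg array share exons and are not independent of each other, so the pooled counts are a description. The median difference was −0.78 over the members and −0.03 over all tested genes, and 45 members had a difference below 0. Both *siOct4*-labelled libraries lay below both *siNcor1* libraries for 42 of 51 members, against 34.8% of all tested genes. Outside the clusters this held for 17 of 23, and in them for 25 of 28. *Pcdhb18*, one of the 42 and of the 45, passed the filter only through *siNcor1* day 6, so its value is a description. The summed level of all members was 1919 ± 126 CPM in *siNcor1* (SD, n = 2) and 1043 ± 60.9 in the *siOct4*-labelled libraries, a ratio of 0.544, and 0.537 without *Fat1*. The count rested in part on a single library. Without replicate 2 of *siNcor1* day 6, that group held 1 library and fewer members were called lower. Fewer of all tested genes were called lower then as well. Of the 28 calls, 13 held under each of the 20 alternatives in which the gene was tested, and these were *Fat1*, *Fat4*, *Dchs1*, *Cdh11*, *Cdh13*, *Pcdh1*, *Pcdh7*, *Pcdh9*, *Pcdh18*, *Pcdhb17*, *Pcdhga12*, *Pcdhgb6* and *Pcdhgc3*.

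Among the giant cadherins, 3 of 5 tested were lower. *Fat4*, the receptor of *Dchs1*, was at 6.63 and 6.56 log2-cpm in *siNcor1* at day 6 and at 4.51 and 5.01 in the *siOct4*-labelled libraries, 3.56-fold lower (log2 difference −1.83, SE 0.20, limma adjusted p = 0.000291). *Fat1* was at 9.77 and 9.94 against 8.94 and 9.06, 1.81-fold lower (−0.86, SE 0.16, limma adjusted p = 0.00239). For both genes these were the lowest of all 8 libraries. *Dchs1* was at 6.48 and 6.48 against 5.82 and 5.62 (−0.76, SE 0.12, limma adjusted p = 0.00125), and in both knockdowns these day 6 levels were above those at day 3. *Fat3*, a Fat gene of nervous tissue with 2 to 28 reads per library, differed by −1.03 (interval −1.97 to −0.09, limma adjusted p = 0.0903), and *Dchs2* by 0.02 (interval −0.74 to 0.78).

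Of the classical cadherins, 1 of 2 tested type I genes and 1 of 4 tested type II genes were lower. *Cdh11* was at 7.56 and 7.78 log2-cpm in *siNcor1* and at 6.31 and 6.68 in the *siOct4*-labelled libraries, 2.25-fold lower (log2 difference −1.17, SE 0.14, limma adjusted p = 0.0004). *Cdh2* was at 5.50 and 5.50 against 4.67 and 5.19, 1.48-fold lower (−0.57, SE 0.15, limma adjusted p = 0.0166). The *Cdh2* libraries did not overlap, but its call was lost in 5 alternatives, among them the fit without replicate 1 of *siOct4* day 6, where the difference was smallest at −0.31. *Cdh3* was at 3.11 and 3.02 in *siNcor1* and 3.45 and 3.62 in the *siOct4*-labelled libraries, a difference above 0 that did not pass the test (0.47, interval 0.08 to 0.85, limma adjusted p = 0.0627). It was called higher, with adjusted p of 0.0230 to 0.0499, in limma without the trend, after median centring, after quantile normalization and with totals that leave out *Gm26917*. Of the other type II cadherins, *Cdh24* differed by −0.78 (limma adjusted p = 0.0501), *Cdh6* by −0.24 and *Cdh8* by 0.34.

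*Cdh13* was the single gene called among the remaining Cdh symbols. It was at 7.14 and 7.24 log2-cpm in *siNcor1* and 6.53 and 6.39 in the *siOct4*-labelled libraries (−0.73, SE 0.12, limma adjusted p = 0.00133). *Cdh17*, a cadherin of intestine and liver, *Cdh23*, a tip-link component of hair cells, and *Cdh26* differed by −0.74, 0.09 and −0.51, each with a 95% interval that covered 0. These 3 genes had few reads, and for *Cdh17* the day 6 counts were 2 and 11 reads in *siNcor1* and 1 and 4 in the *siOct4*-labelled libraries.

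Of the 8 nonclustered protocadherins tested, 4 were lower and all 8 had a difference below 0. *Pcdh1*, a protocadherin of epithelia and airways, was at 3.78 and 3.89 log2-cpm in *siNcor1* and 2.26 and 2.60 in the *siOct4*-labelled libraries, 2.65-fold lower (log2 difference −1.41, SE 0.19, limma adjusted p = 0.000499). *Pcdh18*, a δ-protocadherin of mesenchyme and brain, was at 4.45 and 4.45 against 2.97 and 3.46, 2.35-fold lower (−1.24, SE 0.17, limma adjusted p = 0.000573). *Pcdh9* was at 2.92 and 2.83 against 1.63 and 1.95, 2.12-fold lower (−1.08, SE 0.20, limma adjusted p = 0.0029). In all 3 genes the *siOct4*-labelled libraries at day 6 were the lowest of the 8. *Pcdh7* was at 6.52 and 6.81 against 5.68 and 5.82 (−0.92, SE 0.14, limma adjusted p = 0.000926). Differences that did not pass were those of *Pcdh10* (−0.99, limma adjusted p = 0.102), *Pcdh15* (−0.58), *Pcdh19* (−0.33) and *Pcdh17* (−0.18).

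**Figure D2:**
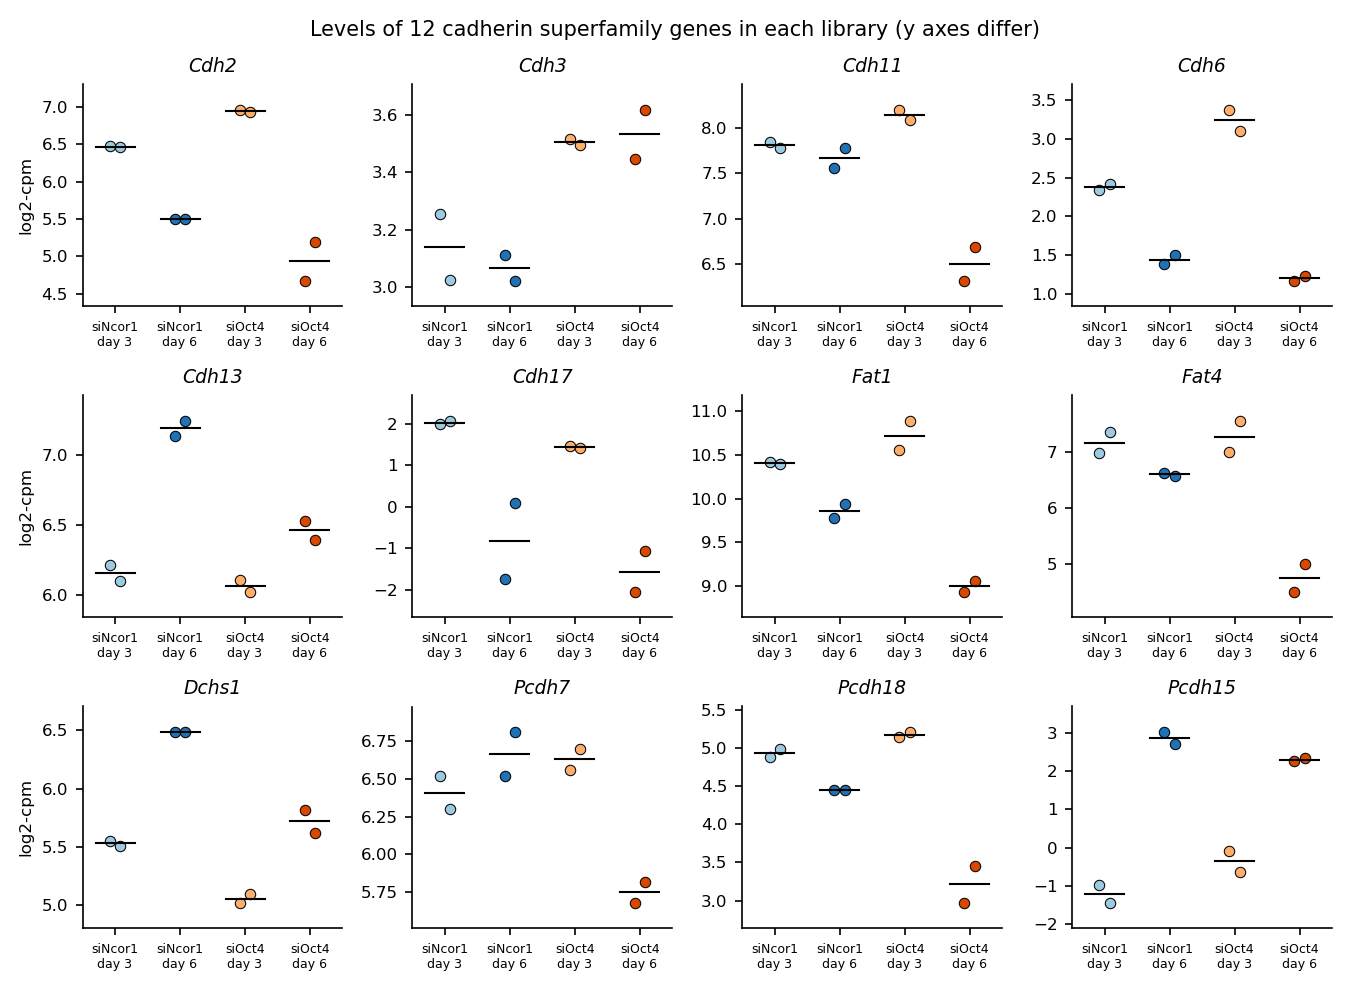
Level of 12 members in each of the 8 libraries, in log2-cpm (y axes differ between panels); points are libraries, horizontal lines are means of the 2 libraries of a group. *Fat4*, *Fat1*, *Cdh11*, *Pcdh7* and *Pcdh18* were lowest in the *siOct4*-labelled libraries at day 6, whereas *Dchs1*, *Cdh13* and *Pcdh15* were higher at day 6 than at day 3 in both knockdowns.

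**Figure D3:**
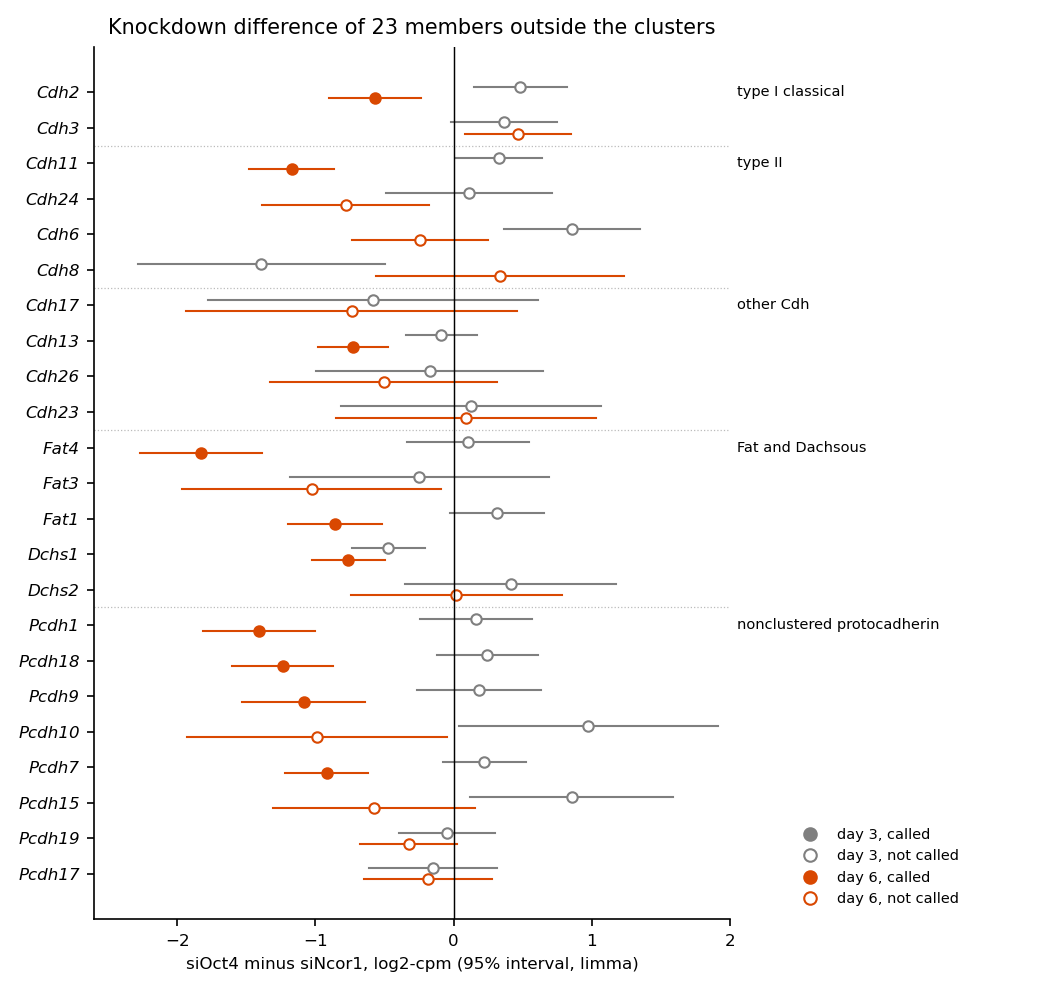
Log2 difference between the *siOct4*-labelled libraries and *siNcor1* (x axis, log2-cpm) for the 23 tested members outside the clusters, at day 3 (grey) and day 6 (orange), with 95% intervals from limma; filled points passed an adjusted p of 0.05. No member was called at day 3, and 10 were called at day 6, all lower.

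All 39 clustered protocadherins lie on chromosome 18 between bases 37143503 and 37841873 of GRCm38, with the Pcdhb genes from 37294812 to 37524479 and the Pcdhg genes from 37661793. Genes of the Pcdhg array splice their own first exon to the same constant exons, and 24 clustered members share exon positions with another gene on the same strand. Between 33.2 and 68.5% of the exon length of a Pcdhg gene belongs to it alone, so reads of the shared part cannot be assigned to a single gene and the values of these genes are uncertain and not independent of each other. With this limit, 18 of 28 tested clustered genes were lower at day 6 and 0 were higher, with a median of −0.80. The Pcdhga genes gave 10 of 11, the Pcdhgb genes 3 of 7, the Pcdhgc genes 2 of 3 and the Pcdhb genes 3 of 6. Without replicate 2 of *siNcor1* day 6, 4 of these 18 calls were left, those of *Pcdhb17*, *Pcdhgb6*, *Pcdhga12* and *Pcdhgc3*, against 9 of 10 outside the clusters.

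*Pcdhgc3*, the array's most abundant gene, took 30.3 to 37.5% of the CPM of the Pcdhg genes in every library. It was at 5.85 and 5.65 log2-cpm in *siNcor1* at day 6 and 5.16 and 4.98 in the *siOct4*-labelled libraries (log2 difference −0.68, SE 0.14, limma adjusted p = 0.0044). *Pcdhga12* was at 2.42 and 2.74 against 0.95 and 1.42 (−1.39, SE 0.25, limma adjusted p = 0.0022), and *Pcdhgb6* at 3.50 and 3.72 against 2.47 and 2.64 (−1.05, SE 0.19, limma adjusted p = 0.00215). In these 3 genes the *siOct4* day 6 libraries were the lowest of the 8. The Pcdhb genes are single-exon paralogs of similar sequence, so reads could also be split among them. *Pcdhb17* was at 1.98 and 2.46 against 0.69 and 0.66 (−1.54, SE 0.28, limma adjusted p = 0.00237). *Pcdhb19* was at 1.39 and 1.27 against −0.84 and 0.21 (−1.64, SE 0.39, limma adjusted p = 0.00888), with 4 and 12 reads in the lower pair, and lost its call without replicate 2 of *siNcor1* day 6. *Pcdhac2*, the only Pcdha gene of the table, ranged from 1.41 to 2.22 over the 8 libraries, and its day 6 difference was 0.08 (interval −0.52 to 0.68). *Pcdhgb8*, annotated as a polymorphic pseudogene, differed by 0.02 (interval −0.67 to 0.72). Summed over all 39 genes, the clusters were at 194 ± 3.97 CPM in *siNcor1* and 111 ± 1.77 in the *siOct4*-labelled libraries at day 6 (SD, n = 2), and at 165 ± 10.8 and 170 ± 13.1 at day 3. At day 3 the differences of the 28 genes lay between −0.42 and 0.31, and none was called, with 0 of 28 at an unadjusted p under 0.05.

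Other genes moved with this result. All 10 fibroblast markers were lower in the *siOct4*-labelled libraries at day 6 (10 of 10 by limma, median −0.84), among them *Pdgfra* (−1.14, adjusted p = 0.000618) and *Thy1* (−0.68, adjusted p = 0.00327), and their summed level was 7688 to 8076 CPM in *siNcor1* and 4393 to 4407 in the *siOct4*-labelled libraries. At day 3 the same sum was 11223 to 11642 and 14513 to 16890, and 0 of 10 were called. Of 10 epithelial markers, 7 were lower at day 6 and 6 at day 3, with sums of 729 to 771 against 324 to 357 CPM and of 93.9 to 95.03 against 38.7 to 46.5. Over all tested genes, 18.6% were lower at day 6 and 1.07% were called in either direction at day 3. Of 7 tested pluripotency markers, 4 were lower at day 6 and 1 at day 3, with sums of 108 to 116 against 44.6 to 51.3 CPM at day 6. *Esrrb*, *Dppa5a*, *Utf1* and *Lin28a* had at most 3 reads per library at day 3 and reached the filter only through *siNcor1* day 6. The pluripotency counts are therefore given as a description. Of 6 tested neural markers, 4 were higher at day 6 and 2 at day 3, with sums of 202 to 220 against 282 to 284 CPM at day 6. *Elavl3*, with 61 and 53 reads in the *siOct4* day 6 libraries, reached the filter only through them. The part of these cell types in the result was not tested. Endothelial (1 tested), skeletal muscle (3), Schwann and glia (2) and blood markers (3) gave no call in either knockdown comparison, and the defining genes *Tie1*, *Cldn5*, *Myod1*, *Myog* and *Ptprc* were not analysed here.

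**Figure D4:**
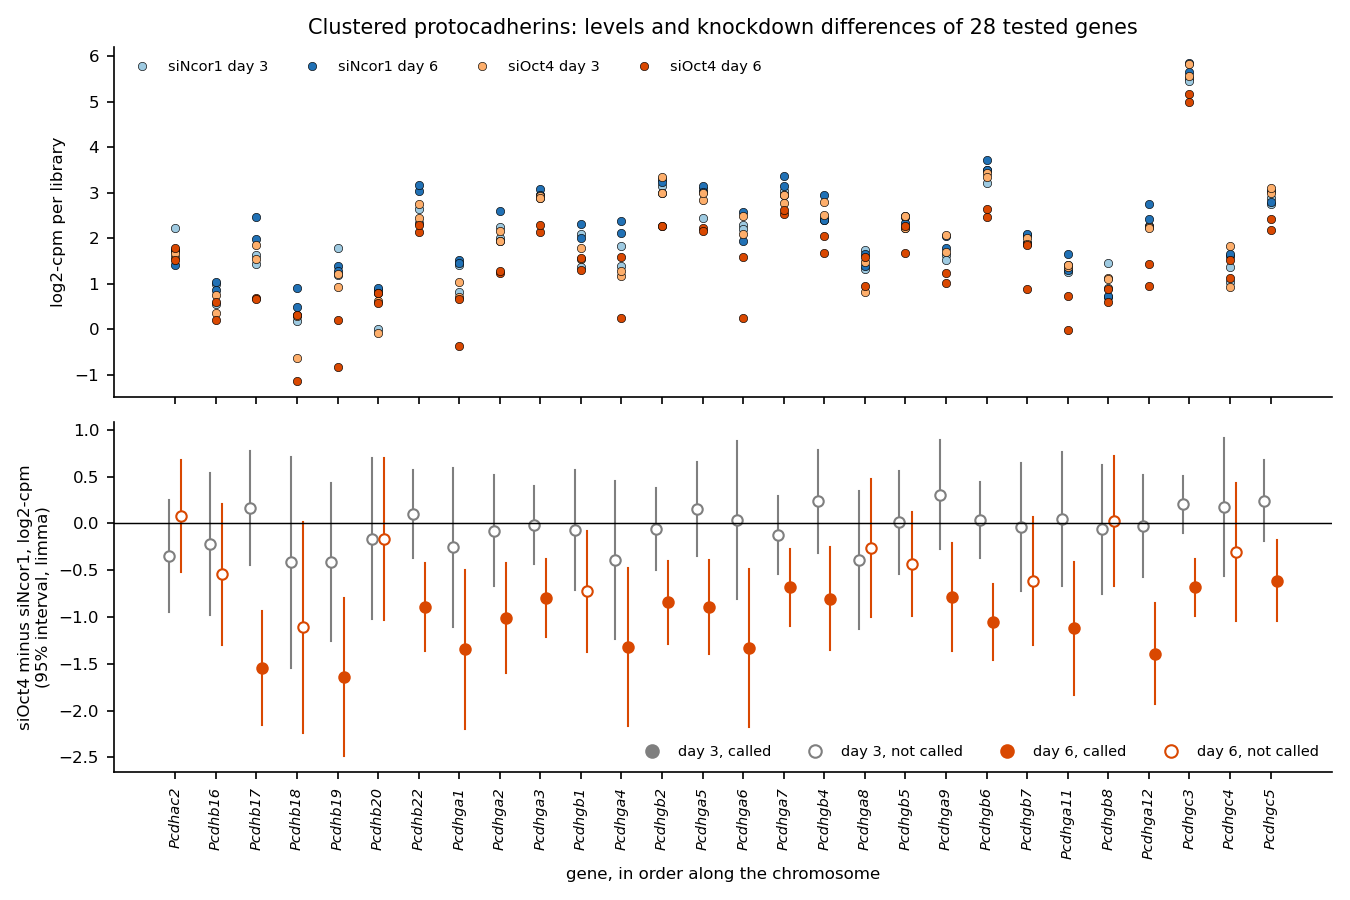
Upper panel, level of the 28 tested clustered protocadherins in each of the 8 libraries (log2-cpm); lower panel, log2 difference between the *siOct4*-labelled libraries and *siNcor1* at day 3 (grey) and day 6 (orange) with 95% intervals from limma, filled where the adjusted p was under 0.05, with genes in order along the chromosome. At day 6, 18 genes were called lower and none higher, and at day 3 none was called.

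The second question was how levels changed between day 3 and day 6 within each knockdown. Without libraries of the nt control, the course of reprogramming and an effect of a knockdown cannot be told apart in these changes. In *siNcor1*, 4 of 51 members rose and 8 fell, where 13.8% of all tested genes rose and 20.9% fell. The members that fell included *Cdh8*, which passed the filter only through *siNcor1* day 3. In the *siOct4*-labelled libraries, 3 rose and 28 fell, where 22.2% rose and 30.5% fell. The median change was 0.14 in *siNcor1* and −0.73 in the *siOct4*-labelled libraries, against −0.07 and −0.08 over all tested genes. The classes differed in *siNcor1*. Outside the clusters 3 of 23 members rose and 8 fell, with a median of −0.25. In the clusters 1 of 28 rose and 0 fell, with a median of 0.25. In the *siOct4*-labelled libraries the medians were −1.31 outside the clusters and −0.66 in them. The sum of the members went from 2331 ± 6.25 to 1919 ± 126 CPM (SD, n = 2) in *siNcor1* and from 2791 ± 325 to 1043 ± 60.9 in the *siOct4*-labelled libraries. Single libraries moved these counts, and the counts over all tested genes as well. The *siNcor1* count of 12 was 7 without replicate 2 of *siNcor1* day 3 or without replicate 1 of *siNcor1* day 6, and the *siOct4* count of 31 was 20 without replicate 2 of *siOct4* day 3, the shallowest library.

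The genes that rose in both knockdowns were *Pcdh15*, *Dchs1* and *Cdh13*. *Pcdh15*, a component of the tip links of hair cells, was at −0.98 and −1.44 log2-cpm at day 3 and 3.03 and 2.72 at day 6 in *siNcor1* (log2 fold change 4.09, SE 0.34, limma adjusted p = 1.68e-05). In the *siOct4*-labelled libraries it was at −0.08 and −0.64, then at 2.26 and 2.34 (2.66, SE 0.34, limma adjusted p = 5.7e-05). The day 3 values stand for 4 to 12 reads per library and the day 6 values for 44 to 97, and no day 3 library overlapped a day 6 library. *Dchs1* rose by 0.95 in *siNcor1* (SE 0.12, limma adjusted p = 0.000197) and by 0.66 in the *siOct4*-labelled libraries (SE 0.12, limma adjusted p = 0.000736). *Cdh13* was at 6.21 and 6.09 log2-cpm at day 3 and 7.14 and 7.24 at day 6 in *siNcor1* (1.04, SE 0.12, limma adjusted p = 9.4e-05), and at 6.11 and 6.02, then 6.53 and 6.39, in the *siOct4*-labelled libraries (0.40, SE 0.12, limma adjusted p = 0.0132). The latter call was lost without replicate 2 of *siOct4* day 3. *Pcdhb22* rose in *siNcor1* (0.61, limma adjusted p = 0.0464), a call lost in 9 alternatives, and had a log2 fold change of −0.39 (limma adjusted p = 0.154) in the *siOct4*-labelled libraries.

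Several members fell in both knockdowns. *Cdh2* fell by 0.97 on the log2 scale in *siNcor1* (SE 0.15, limma adjusted p = 0.000798) and by 2.02 in the *siOct4*-labelled libraries (SE 0.15, limma adjusted p = 1.71e-06), where it went from 6.96 and 6.94 to 4.67 and 5.19 log2-cpm. *Cdh1* rose over the same days by 2.24 and 3.57 (limma adjusted p = 1.6e-06 and 2.1e-08). The log2 level of *Cdh1* minus that of *Cdh2*, which was below 0 in all 4 day 3 libraries, was 1.87 and 1.81 in *siNcor1* and 2.04 and 1.41 in the *siOct4*-labelled libraries at day 6. *Cdh6* fell by 0.94 and 2.04 (limma adjusted p = 0.00773 and 2.3e-05), and *Pcdh19*, an X-linked protocadherin known from epilepsy, by 1.09 and 1.37 (limma adjusted p = 0.000478 and 3.37e-05). *Pcdh19* was at 5.44 and 5.76, then 4.37 and 4.65 log2-cpm in *siNcor1*, and at 5.43 and 5.68, then 4.14 and 4.23, in the *siOct4*-labelled libraries, so that the days did not overlap. *Cdh17* had 62 and 70 reads in *siNcor1* and 39 and 20 in the *siOct4*-labelled libraries at day 3, and 1 to 11 reads at day 6, with log2 fold changes of −2.85 and −3.00 (limma adjusted p = 0.00231 and 0.000732). *Fat1*, *Fat4* and *Pcdh18* fell in both as well, with log2 fold changes of −0.55, −0.56 and −0.48 in *siNcor1* and −1.72, −2.50 and −1.96 in the *siOct4*-labelled libraries (limma). In *siNcor1* the adjusted p values of these 3 were 0.0178, 0.0485 and 0.0434, and each call was lost in at least 4 alternatives.

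Further members fell in the *siOct4*-labelled libraries. *Cdh11* went from 8.20 and 8.09 to 6.31 and 6.68 log2-cpm (−1.64, SE 0.14, limma adjusted p = 3.88e-06), while it was at 7.85 and 7.78, then 7.56 and 7.78, in *siNcor1* (−0.15, interval −0.45 to 0.16). The log2 fold changes were −1.56 for *Pcdh9*, −1.36 for *Pcdh1*, −1.31 for *Pcdh10* and −0.88 for *Pcdh7* in the *siOct4*-labelled libraries, with limma adjusted p values between 7.54e-05 and 0.0229. Their values in *siNcor1* were −0.29, 0.21, 0.66 and 0.26, none of them called. All 5 tested Fat and Dachsous genes were called in the *siOct4*-labelled libraries, with *Fat3* at −1.64 and *Dchs2* at −1.12. *Fat3* passed the filter only through *siNcor1* day 3 and had 2 to 28 reads per library. Without replicate 2 of *siOct4* day 3, *Fat3* was at −1.36 and *Dchs2* at −0.83. Over all alternatives, the call of *Fat3* was lost in 1 and that of *Dchs2* in 2. Of the clustered genes, 14 of 28 fell there and none rose, led by *Pcdhb19* (−1.38), *Pcdhga6* (−1.36), *Pcdhga12* (−1.05) and *Pcdhga11* (−1.04). Without replicate 1 of *siOct4* day 6 the values of *Pcdhb19*, *Pcdhga6* and *Pcdhga11* were −0.86, −0.69 and −0.66 and none was called (limma adjusted p between 0.0748 and 0.128). Without replicate 2 of *siOct4* day 3, 7 of the 14 calls were left, and 10 without replicate 1, while *Pcdhga12* was called under each alternative. In *siNcor1*, 1 of 28 clustered genes was called, 23 of 28 had a change above 0 and the median was 0.25. Among the 23 was *Pcdhb18*, which passed the filter only through *siNcor1* day 6, so its change is a description. *Cdh8* fell in *siNcor1*, from 1.28 and 1.92 to −0.48 and −0.46 log2-cpm (−2.08, SE 0.41, limma adjusted p = 0.00268), with 37 and 63 reads, then 7 and 7. It passed the filter only through *siNcor1* day 3, where it averaged 2.97 CPM against 0.81 over the other groups, so its fall is given as a description. Its value in the *siOct4*-labelled libraries was −0.35 (interval −1.24 to 0.55). The markers moved between the days too. Of the fibroblast markers, 3 rose and 4 fell in *siNcor1*, and 0 rose and 7 fell in the *siOct4*-labelled libraries. In both knockdowns 9 of 10 epithelial and 7 of 7 pluripotency markers rose. Over all tested genes, 13.8% rose in *siNcor1* and 22.2% in the *siOct4*-labelled libraries. The rises of *Esrrb*, *Dppa5a*, *Utf1* and *Lin28a* are a description, since these genes reached the filter only through *siNcor1* day 6. Of the smaller lists, the endothelial marker *Tek* and the muscle marker *Des* fell in both, *Sox10* fell and *Chrna1* rose in the *siOct4*-labelled libraries, and 1 of 3 blood markers in *siNcor1* and 3 of 3 in the *siOct4*-labelled libraries rose. *Sox10* would not have reached the filter without *siOct4* day 3, nor *Chrna1* and *Elavl3* without *siOct4* day 6. Of the neural markers, 2 rose and 3 fell in *siNcor1*, and 4 rose in the *siOct4*-labelled libraries. Their part in the members' changes was not tested.

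**Figure D5:**
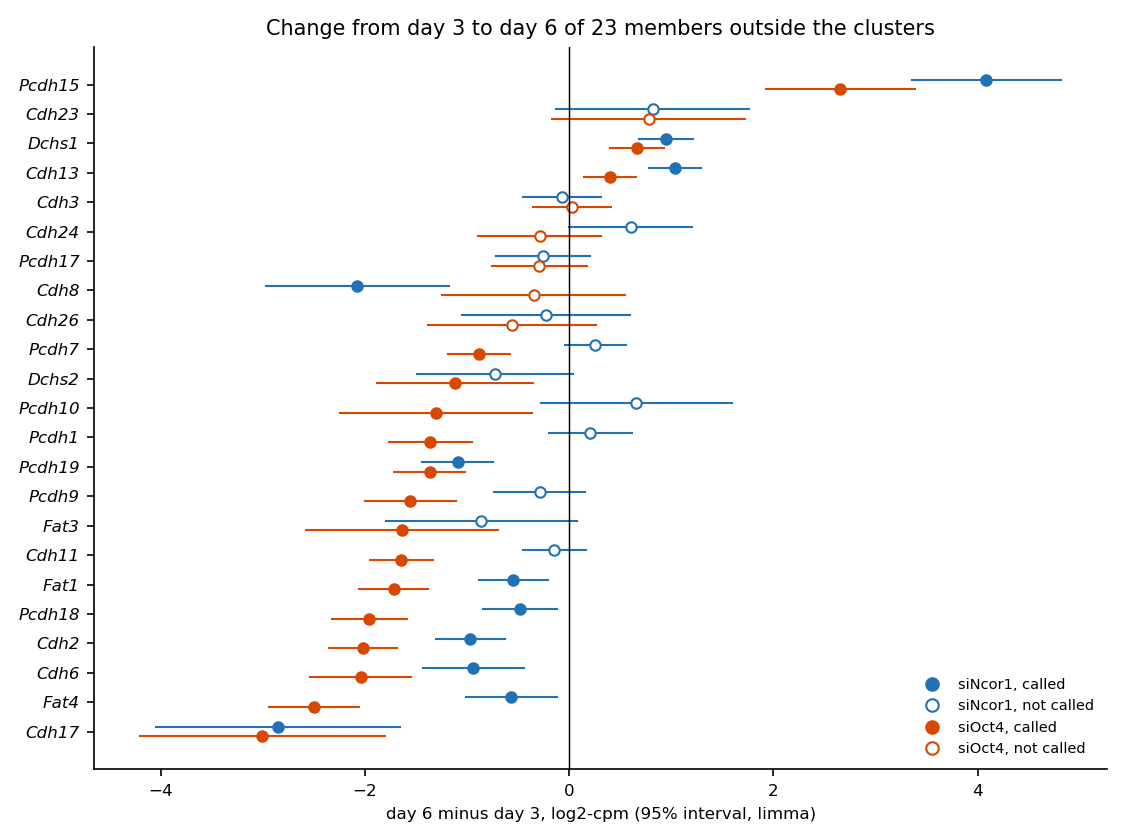
Log2 change from day 3 to day 6 (x axis, log2-cpm) of the 23 tested members outside the clusters in *siNcor1* (blue) and in the *siOct4*-labelled libraries (orange), with 95% intervals from limma; filled points passed an adjusted p of 0.05. *Pcdh15*, *Dchs1* and *Cdh13* rose in both, and the largest falls were those of *Cdh17* in both and of *Fat4* in the *siOct4*-labelled libraries.

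Whether the knockdown difference itself changed between the days was tested as an interaction, which is the difference at day 6 minus that at day 3. It was below 0 and called for 17 of 51 members and above 0 and called for 0, where 20.7% of all tested genes were called and 12.9% were below 0 and called. The median was −0.89 over the members and 0.01 over all tested genes. Outside the clusters 11 of 23 were called, and in them 6 of 28. *Fat4* gave −1.93 (SE 0.29, limma adjusted p = 0.00139), *Cdh11* −1.50 (SE 0.20, limma adjusted p = 0.000897), *Pcdh1* −1.57 (SE 0.26, limma adjusted p = 0.00238) and *Pcdh18* −1.48 (SE 0.24, limma adjusted p = 0.00194). *Cdh2*, for which the 2 knockdown differences were 0.48 and −0.57, gave −1.05 (SE 0.22, limma adjusted p = 0.00704). *Dchs1*, with −0.47 at day 3 and −0.76 at day 6, did not pass (−0.29, interval −0.66 to 0.09, limma adjusted p = 0.251), and neither did *Cdh3* (0.10, interval −0.44 to 0.64). *Cdh8* had the highest value, 1.73 (interval 0.46 to 2.99, limma adjusted p = 0.0541). It passed the filter only through *siNcor1* day 3, a group of this comparison, so the value is a description. The count of 17 fell without replicate 2 of *siNcor1* day 3, of *siNcor1* day 6 or of *siOct4* day 3. The count over all tested genes fell in the same fits. Calls that held under each alternative in which the gene was tested were those of *Fat1*, *Fat4*, *Cdh2*, *Cdh11*, *Pcdh1*, *Pcdh7*, *Pcdh9* and *Pcdh18*.

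The partners of these proteins were read from lists of named genes. Catenins and junction partners link cadherins to actin, and 11 of the 12 listed genes were tested. At day 6, 4 were lower in the *siOct4*-labelled libraries than in *siNcor1* and 1 was higher. Over all tested genes, 18.6% were lower and 30.7% were called in either direction. *Jup*, which encodes plakoglobin (−1.33), *Vcl*, vinculin (−1.06), *Ctnnb1*, β-catenin (−0.65), and *Ctnna1*, α-catenin (−0.40), were lower, and *Pkp4* (0.34) was higher (limma adjusted p between 0.000291 and 0.0427). Between the days, *Vcl* fell by 1.22 in *siNcor1* and 2.58 in the *siOct4*-labelled libraries, and the whole list gave 2 rises and 6 falls in the former and 1 and 6 in the latter. The shares of all tested genes that rose and fell were 13.8% and 20.9% in *siNcor1*, and 22.2% and 30.5% in the *siOct4*-labelled libraries. *Jup* and *Ctnnb1* both rose by 0.41 in *siNcor1*, while *Jup* fell by 1.09 in the *siOct4*-labelled libraries.

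Of 10 genes downstream of or beside Fat and Dachsous cadherins, including the Hippo kinases and their targets, 7 were lower in the *siOct4*-labelled libraries at day 6, with a median of −0.58. These were *Lats2* (−0.80), *Tead3* (−0.80), *Wwtr1* (−0.79), *Lix1l* (−0.78), *Tead1* (−0.70), *Lats1* (−0.47) and *Yap1* (−0.35). Over all tested genes, 18.6% were lower at day 6. The list gave 2 rises and 3 falls in *siNcor1* and 0 and 7 in the *siOct4*-labelled libraries between the days. Of all tested genes, 13.8% rose and 20.9% fell in *siNcor1*, and 22.2% and 30.5% in the *siOct4*-labelled libraries. *Fjx1*, whose fly counterpart phosphorylates Fat and Dachsous, rose by 0.96 in *siNcor1* (limma adjusted p = 0.00184).

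Promoter choice in the protocadherin clusters depends on CTCF, cohesin, DNA methylation and the repressor SMCHD1. Of 17 such regulators, 2 were lower at day 6, the cohesin release factor *Wapl* (−0.59) and the methyltransferase *Dnmt3a* (−0.34), and *Dnmt1* was higher (0.42), with a median of −0.07. These 3 of 17 calls compare with 30.7% of all tested genes called in either direction. Between the days 1 rose and 10 fell in *siNcor1*, and 1 rose and 12 fell in the *siOct4*-labelled libraries. Falls thus made up 10 and 12 of 17, against 20.9% and 30.5% of all tested genes. *Dnmt3b* was the gene that rose, by 1.60 and 1.80, and *Smchd1* fell by 1.20 and 0.85 and *Ctcf* by 0.70 and 0.52. Of 9 genes for proteases that cut cadherins at the membrane, *Adam9* (−0.97), *Adam10* (−0.58) and *Ncstn* (−0.70), a subunit of γ-secretase, were lower at day 6 (limma adjusted p between 0.00086 and 0.00886). That is 3 of 9, against 18.6% of all tested genes. Sheddases gave 0 rises and 3 falls in *siNcor1* and 1 and 4 in the *siOct4*-labelled libraries between the days, out of 9, where 13.8% and 20.9% of all tested genes rose and fell in *siNcor1* and 22.2% and 30.5% in the *siOct4*-labelled libraries. At day 3, 0 genes of the 4 lists were called between the knockdowns, where 1.07% of all tested genes were. The interaction was called below 0 for 3 of 11 catenins and junction partners and 5 of 10 Fat and Dachsous pathway genes. It was called below 0 for 0 of 17 cluster regulators and 2 of 9 sheddases, against 12.9% of all tested genes.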

How the data were processed

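RNA-seq libraries were from MEFs at day 3 and day 6 of reprogramming after siRNA against *Ncor1* or *Oct4*, 2 per group, described as biological replicates; p-values measure the spread between such libraries. The submitters' processing notes name STAR 2.5.2b, mm10 and edgeR 3.20.9. The authors deposited log2 CPM values, and the tool that counted reads and its strand setting are not given in the sources used here, so for the 8 members outside the clusters that overlap exons on the other strand, sense and antisense reads may be mixed. Whole reads were recovered from the values (tolerance 0.1 read), which gave the depth, and 3 reads are 0.174 to 0.380 CPM, a floor that covers counting error only. Replicates of each group differed by more than sampling of reads allows, at a chi-square of 9.47 to 22.1 per degree of freedom, so each counted as 1 sample.

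All genes that averaged 1 CPM or more were tested with limma 3.58.1 (R 4.3.3, lmFit, eBayes with trend, all 8 libraries), with Benjamini-Hochberg adjustment over all 13866 genes and calls at 0.05. Of the tested members, 4 averaged under 1 CPM over the groups other than their highest. These were *Cdh8* and *Fat3* (highest in *siNcor1* day 3), *Pcdhb18* (*siNcor1* day 6) and *Cdh23* (*siOct4* day 6). The test was checked on simulated data. Coordinates came from GENCODE M21 (GRCm38), which matched all 71 members, and promoters from RefSeq GRCm38.p6. Places of members by level were given as CPM per kb of unshared exon. Sums and shares of CPM were not corrected for length. Neither was the log2 level of *Cdh1* minus that of *Cdh2*, whose exons span 4.57 and 8.07 kb. Members named with all libraries were *Cdh2*, *Cdh3*, *Cdh5*, *Cdh11*, *Cdh13*, *Fat1*, *Fat4* and *Dchs1*, plus the called members with the largest differences in each comparison (up to 8 outside and 4 inside the clusters), and other members are named with single values. Members, partner lists and marker lists were chosen with earlier results of these data known. Alternatives were other scalings, filters and pseudocounts, voom, limma without the trend, a replicate block, fewer libraries and, chosen after seeing the data, totals without *Gm26917*.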

Additional observations from a re-analysis of the deposited data

Results flagged for a closer look

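For 17 members the difference between the knockdowns was not the same at the 2 days, by the limma test of that change over all 8 libraries. In each the value, the log2 difference of the *siOct4*-labelled libraries to *siNcor1* at day 6 minus that at day 3, was below 0. Among the giant cadherins it was −1.93 for *Fat4* and −1.17 for *Fat1*. Among the cadherins with a Cdh symbol it was −1.50 for *Cdh11*, −1.10 for *Cdh6*, −1.05 for *Cdh2* and −0.64 for *Cdh13*. Among the nonclustered protocadherins it was −1.97 for *Pcdh10*, −1.57 for *Pcdh1*, −1.48 for *Pcdh18*, −1.27 for *Pcdh9* and −1.14 for *Pcdh7*. In the clusters it was −1.71 for *Pcdhb17*, −1.37 for *Pcdhga12*, −1.09 for *Pcdhgb6*, −1.05 for *Pcdhga5*, −0.99 for *Pcdhb22* and −0.89 for *Pcdhgc3*. *Pcdh10* had 8 to 38 reads per library, and its call was lost in 8 alternatives (limma adjusted p = 0.04 over all libraries, and 0.0122 to 0.181 over the alternatives). Calls were also lost in 8 alternatives for *Pcdhga5*, 7 for *Pcdhb22*, 6 for *Cdh6*, 5 for *Cdh13* and 4 for *Pcdhga12*. For *Pcdhb17*, *Pcdhgb6* and *Pcdhgc3* they were lost in 2 each. The same test was called below 0 for 9 of 10 fibroblast markers, and their part in these values was not tested.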

How the results depend on the processing

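No called value of a named member changed sign under any of the 20 alternatives. With a mean of at least 10 CPM, where 12 members were tested, 10 were called at day 6, 6 and 11 between the days in *siNcor1* and in the *siOct4*-labelled libraries, and 9 in the interaction. Of all 9223 genes tested at that filter, 3503, 3827, 5385 and 2357 were called, in the same order. At day 3, where 0 were called, voom called 1 and the fit of the compared groups alone called 1. Leaving out each library in turn gave 0 to 2 members at day 3, 13 to 27 at day 6, 7 to 13 in *siNcor1*, 20 to 32 in the *siOct4*-labelled libraries and 8 to 23 in the interaction, where a lone library is assumed to vary like the other groups. The counts over all tested genes also moved when a library was left out. With the replicate block the counts of members were 0, 30, 12, 31 and 20, in the order day 3, day 6, *siNcor1*, *siOct4*-labelled libraries and interaction. Of all 13866 tested genes, 222, 4698, 5218, 7570 and 3395 were called with that block, in the same order. The replicate numbers were not taken as pairs, since nothing in the labels ties them and replicate differences correlated by 0.0981 between the knockdowns at day 3 and by 0.281 at day 6. Over all genes, the share of calls that were higher at day 6 was 39.5% and 27.3% without normalization factors, and the share that rose was 39.8% and 49.8% in *siNcor1* and 42.1% and 52.8% in the *siOct4*-labelled libraries with totals without *Gm26917*, which moved the median of the latter by 0.14. Of the results of the 27 named members under the alternatives, 2309 kept direction and side of the threshold, 112 lost and 37 gained a call, and 36 values that were called in neither fit changed sign. Depth limits the members with few reads, such as *Cdh17*, *Cdh8*, *Pcdh10* and most Pcdhb genes. Each group rests on 2 libraries.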
